A study of Bos taurus with 3 samples.

Results

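The genes described here belong to the Notch pathway: the ligands JAG1, JAG2, DLL1 and DLL4, the receptors NOTCH1, NOTCH2 and NOTCH3, the target HES1, and the non-canonical ligands DLK1 and DLK2. They were chosen by gene symbol, and each of the 10 symbols matched 1 gene among the 27270 genes of the count tables. Notch receptors sit in the cell membrane and are cut when a ligand on a neighbouring cell pulls on them, after which the freed inner part enters the nucleus, joins the DNA-binding protein RBPJ and turns on genes such as HES1. Jagged and Delta-like proteins are the activating ligands, whereas DLK1 and DLK2 lack the domain with which those ligands engage the receptor and are known mainly as inhibitors. In stratified epithelia the pathway is known for its part in the passage of cells from the basal layer to the layers above it, and in blood vessels for its part in arterial endothelium and in the mural cells around it.

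The tissue was rumen, the stratified, squamous-lined forestomach, from 3 newborn dairy calves sampled 1 day after birth. They had no treatment and formed a single group. The outer muscle was removed and the tissue was dissociated with EDTA, trypsin and a mix of collagenases, dispase, hyaluronidase and DNase, and the libraries were 3′ droplet libraries of 1 per calf. The deposited tables held 7529, 12043 and 11656 barcodes with 82263092, 89803289 and 106145091 UMIs (unique molecule counts) in calves 1, 2 and 3, and the median barcode had 9126, 6399 and 7642 UMIs. Between any pair of calves 21 to 37 barcodes were shared, at most 0.385% of the smaller library, and 0 were shared by all 3.

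Barcodes with 500 to 4000 detected genes numbered 4935, 10737 and 10543. In these barcodes HES1 had 3.00, 3.00 and 2.13 UMIs per 10000 UMIs of the calf and was detected in 81.0%, 68.8% and 59.7% of barcodes. DLK2 had 1.11, 2.84 and 2.01 UMIs per 10000 and was detected in 50.3%, 66.0% and 56.4%. Both were detected in most barcodes of every calf. JAG2 was detected in 57.9%, 55.0% and 53.8% of barcodes, JAG1 in 54.1%, 45.1% and 38.3%, and DLL1 in 23.6%, 34.2% and 37.5%. NOTCH1 was detected in 9.20%, 4.68% and 4.07%, NOTCH3 in 12%, 7.12% and 4.61%, and NOTCH2 in 2.61%, 0.801% and 1.78%. DLL4 was detected in 0.588%, 2.21% and 2.38%, and DLK1 in 0.648%, 0.810% and 1.02%. The ligands JAG1, JAG2 and DLL1 were thus met in far more barcodes than any of the 3 receptors, and DLK1 and DLL4 were met in few.

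After limits on UMIs and mitochondrial share and removal of 1978 presumed doublets, 24042 cells remained (4695, 9746 and 9601). They were clustered with all 62 genes of a Notch pathway list left out. None of the genes described thus took part in forming the clusters, although other genes of the same cells did. The earlier doublet score did not leave the Notch genes out. Clusters were named from marker genes, and names such as epithelial stand for epithelial-like and so on. The epithelial class held 4587, 8771 and 7786 cells of calves 1, 2 and 3, endothelial cells 76, 558 and 690, fibroblasts 16, 224 and 225, mural or myofibroblast cells 6, 116 and 190, and immune cells 10, 77 and 710. The epithelial class made up 97.7%, 90.0% and 81.1% of the 3 calves' cells, and calf 1 had few cells of any other class. Levels below are UMIs per 10000 UMIs of a calf's summed cells, as mean ± SD over the calves with at least 10 cells in the group, so mural values rest on calves 2 and 3.

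Of 13 epithelial clusters, 3 were named basal layer (1268, 2441 and 2036 cells, led by genes such as COL17A1, KRT15 and KRT5), 1 spinous layer (266, 428 and 222 cells, led by KRTDAP, SPINK5, KRT4 and A2ML1), 1 S phase and 1 mitotic. One of the basal clusters was led, within the epithelial class, by the stress genes DUSP1, DNAJB1, FOSB and ATF3. The other 7 epithelial clusters did not meet the naming rule and held 41.1%, 60.7% and 59.9% of the epithelial cells of calves 1, 2 and 3. No cluster scored highest for the granule layer, the layer above the spinous layer, so no value is given for it. The granule marker list scored highest in the spinous cluster (1.29, below the spinous score of 3.69 there). The next highest granule score was 0.165, in an unnamed cluster. Of its markers, CLDN1 and CLDN4 were among the leading genes of unnamed clusters, and CLDN4 led a basal one. DLK2, a granule cell marker in the study, was kept out of the marker lists, and whether granule cells lie in these clusters was not tested. That rule was set after the clusters had been seen.

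JAG1 (ENSBTAG00000012817) encodes the Jagged ligand known in both vessels and epithelia. Its level was 1.37, 1.43 and 1.86 in endothelial cells of calves 1, 2 and 3 (1.56 ± 0.269, n = 3) and 0.846, 0.879 and 0.625 in epithelial cells (0.784 ± 0.138, n = 3). Mural cells had 1.85 and 1.35 (1.60 ± 0.355, n = 2), fibroblasts 0.624 ± 0.159 and immune cells 0.415 ± 0.177 (n = 3). Mural and endothelial cells were the highest and overlapped each other, every endothelial value lay above every epithelial one, and epithelial and fibroblast values, like fibroblast and immune values, overlapped. Within blood endothelium the level was 2.67, 2.71 and 2.79 in a cluster led by CLDN5 and SOX17 (2.72 ± 0.0611, n = 3) and 1.2 on average in the cluster led by PLVAP. Cells with a JAG1 UMI were 39.5%, 36.0% and 50.7% of endothelial and 54.1%, 45.1% and 39.7% of epithelial cells, whose median depths were 3914.5 and 7655 UMIs. Thinned to 2000 UMIs a cell, which left out 160 endothelial and 513 epithelial cells as too shallow, the mean shares were 24.9% and 15.6%, the order of the levels.

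JAG1 differed between endothelial and epithelial cells by a log2 difference of 0.66 (SE 0.24, higher in 3 of 3 calves, edgeR with Benjamini-Hochberg adjusted p = 0.0303). This call was fragile: it was lost without the calf block (0.61, edgeR adjusted p = 0.120), with DESeq2 (adjusted p = 0.0677) and without calf 1, 2 or 3 in turn (edgeR adjusted p = 0.0685, 0.0749 and 0.511). The mural difference of 0.61 did not pass (edgeR adjusted p = 0.133). JAG1 fell by 1.39 on the log2 scale in immune cells (edgeR adjusted p = 0.00125), a call lost without calf 3 (edgeR adjusted p = 0.0666). The fall was not that of every immune cell: in calves 2 and 3 the T or NK cells had 1.02 and 0.760, above the epithelial values of the same calves, and held 80 of the 114 immune UMIs, while dendritic or myeloid cells had 0.285 and 0.0575. It fell by 0.83 in fibroblasts (edgeR adjusted p = 0.0437), which was lost without the block (-0.87, edgeR adjusted p = 0.0661), with DESeq2 (adjusted p = 0.165), with no doublet removal (edgeR adjusted p = 0.0761) and without calf 1 or 2 (edgeR adjusted p = 0.0748 and 0.436).

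Across the epithelium JAG1 was at 0.754, 0.749 and 0.588 in the basal layer (0.697 ± 0.0948, n = 3) and at 0.965, 0.649 and 0.529 in the spinous layer (0.714 ± 0.225, n = 3). S phase cells had 0.533 ± 0.108 and mitotic cells 0.510 ± 0.126, while the unnamed epithelial clusters together had 0.985. In the order spinous, basal, S phase, mitotic, all neighbours overlapped. The spinous and basal layers differed by a log2 difference of 0.17, which did not pass (edgeR adjusted p = 0.255) and whose direction turned without calf 1 (-0.014). With no doublet removal it was 0.48 and passed (edgeR adjusted p = 0.00957). In mitotic cells JAG1 fell by 0.69 against the basal layer (SE 0.11, lower in 3 of 3 calves, edgeR adjusted p = 0.000748), a call that was lost without the calf block (-0.67, edgeR adjusted p = 0.240).

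JAG2 (ENSBTAG00000007319) encodes the other Jagged ligand. Its level was 2.15, 1.06 and 1.33 in endothelial cells (1.51 ± 0.568, n = 3) and 0.957, 1.33 and 1.27 in epithelial cells (1.19 ± 0.201, n = 3). The 2 classes overlapped, and calf 1 alone placed endothelial cells well above. Fibroblasts had 13, mural cells 14 and immune cells 40 JAG2 UMIs in all, at levels of 0.211, 0.160 and 0.144 that overlapped one another and lay below every epithelial value. The endothelial signal was concentrated in the cluster led by CLDN5 and SOX17, with 5.90, 3.28 and 2.92 (4.03 ± 1.63, n = 3), against a mean of 0.826 in the cluster led by PLVAP. In every calf the first of these clusters held the higher value.

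Cells with a JAG2 UMI were 58.0%, 57.0% and 61.2% of epithelial cells and 51.3%, 29.9% and 35.5% of endothelial cells, and after thinning the means were 21.7% and 23.1%. In fibroblasts, whose median depth was 1870 UMIs and of which thinning left out 274, the thinned mean was 1.99%. Free RNA from the many epithelial cells can give such shares: per 1000 UMIs of the keratin gene KRT15, JAG2 had 10.9 UMIs in epithelial cells and 15.6, 18.4 and 16.9 in fibroblasts, mural and immune cells, but 278 in endothelial cells. The ratio in fibroblasts, mural and immune cells was thus somewhat above that of epithelial cells, and that of endothelial cells was far above it. Doublets left in these classes would give a like ratio, and where their few JAG2 UMIs came from was not tested.

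The log2 difference of JAG2 between endothelial and epithelial cells was -0.08 and did not pass (edgeR adjusted p = 0.852), and its direction turned without calf 2 (0.16). Across the layers JAG2 was at 0.957, 1.45 and 1.35 in the basal layer (1.25 ± 0.260, n = 3) and at 0.146, 0.237 and 0.467 in the spinous layer (0.283 ± 0.165, n = 3). Mitotic cells had 0.845, 1.23 and 1.39 (1.16 ± 0.282, n = 3) and S phase cells 1.07 on average. The unnamed clusters together had 1.33, 1.44 and 1.27 (1.35 on average), within the range of the basal values. Basal, mitotic and S phase values overlapped in that order, while all 3 spinous values lay below them. JAG2 fell by 2.09 on the log2 scale from the basal to the spinous layer (SE 0.18, lower in 3 of 3 calves, edgeR adjusted p = 4.32e-06). Its mitotic difference of -0.34 did not pass (edgeR adjusted p = 0.119), but did without calf 3 (-0.45, edgeR adjusted p = 0.0349), with no doublet removal (-0.36, edgeR adjusted p = 0.0148) and with no filter on low counts (-0.39, edgeR adjusted p = 0.0274).

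DLL1 (ENSBTAG00000031476) encodes a Delta-like ligand. Its level was 0.447, 0.701 and 0.728 in endothelial cells (0.625 ± 0.155, n = 3) and 0.277, 0.641 and 0.797 in epithelial cells (0.572 ± 0.267, n = 3). These values overlapped, with calf 1 the lowest in both classes. Fibroblasts, mural and immune cells had 17, 6 and 18 UMIs, at levels of 0.126, 0.0701 and 0.0452 that overlapped in that order and lay below the lowest epithelial value. The shares of cells with a DLL1 UMI were 23.7%, 34.7% and 42.2% in epithelial and 19.7%, 23.3% and 28.6% in endothelial cells, and thinned means were 11% and 11.4%. Per 1000 KRT15 UMIs DLL1 stood at 5.43 in epithelial, 153.6 in endothelial, 20.4 in fibroblast, 7.88 in mural and 7.60 in immune cells, so that fibroblasts, on 17 UMIs, were also above the epithelial ratio. The endothelial difference of -0.25 (log2) did not pass (edgeR adjusted p = 0.374).

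Among the named layers, DLL1 went down in each calf in the order basal, S phase, mitotic and spinous. The values were 0.359, 0.684 and 0.837 in the basal layer (0.627 ± 0.244, n = 3), 0.166, 0.461 and 0.409 in S phase, 0.145, 0.309 and 0.245 in mitotic cells (0.233 ± 0.0827, n = 3) and 0.0298, 0.119 and 0.170 in the spinous layer (0.106 ± 0.0709, n = 3). Neighbouring groups overlapped across calves, so that the order held within calves, while spinous and basal values did not overlap. The unnamed clusters together had 0.395, 0.740 and 0.979, above the basal layer in every calf. DLL1 fell by 2.48 on the log2 scale in spinous against basal cells (SE 0.20, lower in 3 of 3 calves, edgeR adjusted p = 2.85e-06). In mitotic cells it fell by 1.63 (edgeR adjusted p = 2.62e-05), and without the calf block by 1.65 with the call lost (edgeR adjusted p = 0.0976).

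DLL4 (ENSBTAG00000010361) encodes the Delta-like ligand best known from vessel sprouting. Its level was 0.977, 1.29 and 1.01 in endothelial cells (1.09 ± 0.171, n = 3), and these cells held 699 of the 749 DLL4 UMIs of all kept cells. Epithelial cells had 31 UMIs (0.00165), fibroblasts 5 (0.0378), mural cells 2 (0.0201) and immune cells 12 (0.0255). Endothelial cells thus stood apart in every calf, the other 4 classes overlapped, and all 12 immune UMIs lay in the dendritic or myeloid clusters. Inside blood endothelium the cluster led by CLDN5 and SOX17 had 1.26, 1.74 and 1.84 (1.62 ± 0.308, n = 3) and the cluster led by PLVAP 0.929, 1.2 and 0.674 (0.935 ± 0.264, n = 3), the first higher in every calf. Cells with a DLL4 UMI were 27.6%, 35.3% and 29.0% of endothelial cells and 0.153%, 0.114% and 0.180% of epithelial cells, the latter at the greater median depth (7655 against 3914.5 UMIs). The log2 difference was 8.91 (SE 0.31, higher in 3 of 3 calves, edgeR adjusted p = 4.4e-13). DLL4 was also called in fibroblasts and immune cells, on those 5 and 12 UMIs, and the fibroblast call was lost without calf 2 (3.92, edgeR adjusted p = 0.0533). The mural cells, with 2 DLL4 UMIs, did not pass with edgeR (adjusted p = 0.0518) but did with DESeq2 (adjusted p = 0.00996). With 699 of the 749 DLL4 UMIs in endothelial cells, the gene could be tested mainly through them. The calls in the other classes are therefore not read as rises.

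**Figure D1:**
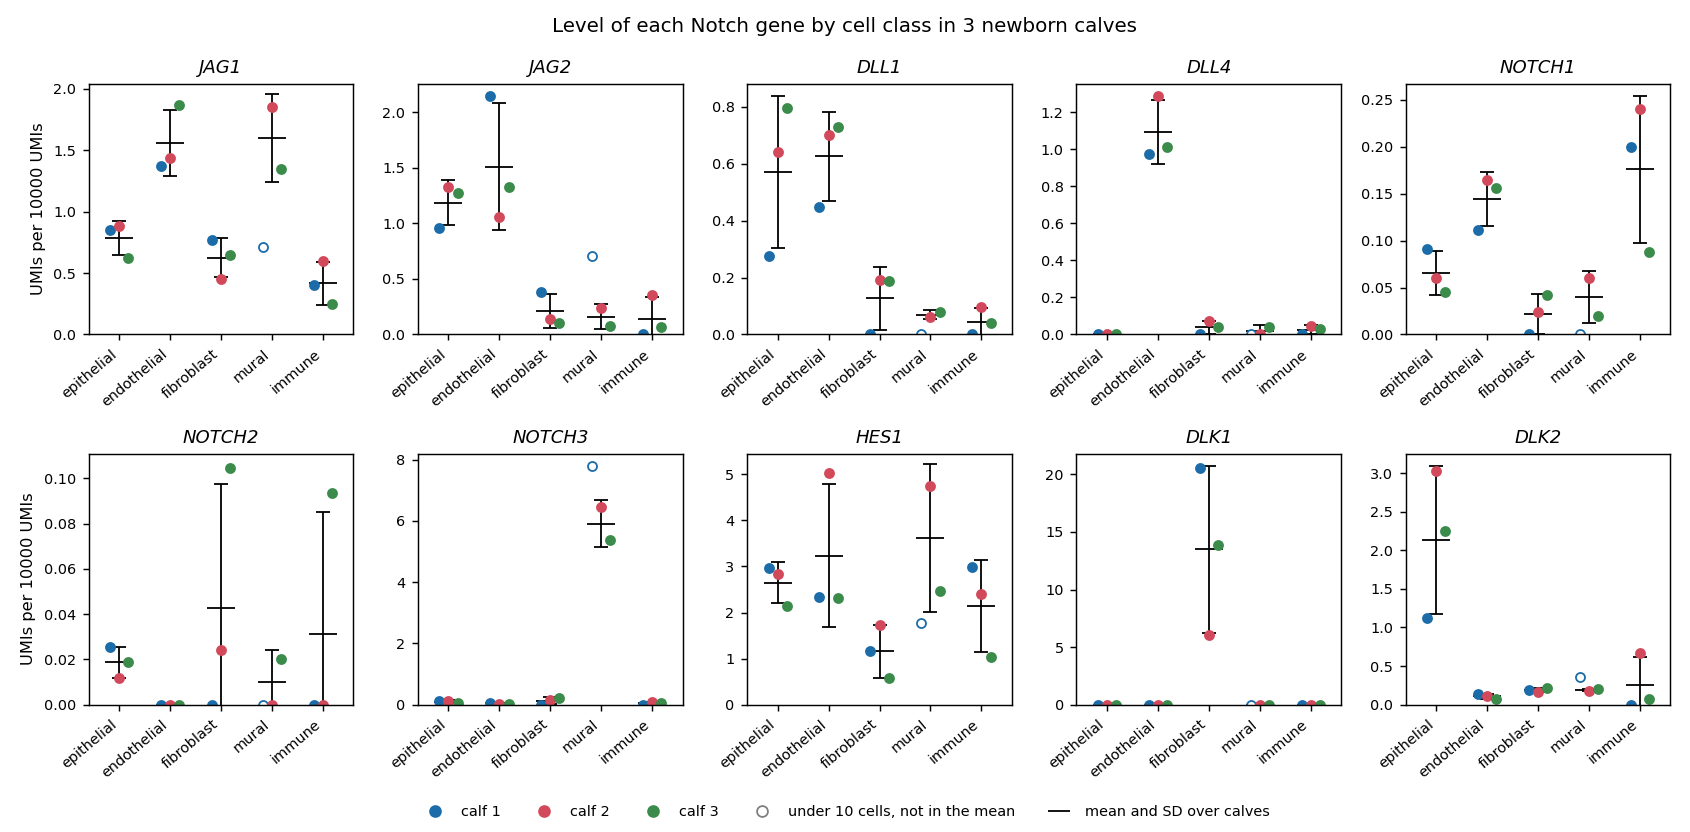
UMIs per 10000 UMIs of each of the 10 Notch genes in 5 cell classes, with a point per calf, open where the calf had under 10 cells in the class, and a bar for mean and SD. DLL4 stood high in endothelial cells, NOTCH3 in mural cells, DLK1 in fibroblasts and DLK2 in epithelial cells, while HES1 was met in all 5 classes and was lowest in fibroblasts on average.

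NOTCH1 (ENSBTAG00000022799) encodes the receptor with the best known role in keratinocytes. Its level was 0.199, 0.240 and 0.0879 in immune cells (0.176 ± 0.0787, n = 3), 0.112, 0.165 and 0.156 in endothelial cells (0.144 ± 0.0285, n = 3) and 0.0912, 0.0607 and 0.0452 in epithelial cells (0.0657 ± 0.0234, n = 3). The immune values rest on 1, 10 and 31 UMIs. Pooled over calves, the immune level of 0.105 lay below the endothelial level of 0.157. Mural cells and fibroblasts had 3 UMIs each. Immune and endothelial values overlapped, endothelial values all lay above epithelial ones, and epithelial, mural and fibroblast values overlapped in turn. The lymphatic endothelial cluster of 43 cells had 0.494 and 0.526 in calves 2 and 3 (0.510 ± 0.0226, n = 2), from 3 and 6 UMIs. NOTCH1 was too low in the small classes to enter the fits between classes, so no class difference was tested.

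Within the epithelium NOTCH1 was at 0.233, 0.117 and 0.158 in the spinous layer (0.170 ± 0.0587, n = 3) and at 0.0990, 0.0622 and 0.0488 in the basal layer (0.0700 ± 0.0260, n = 3). S phase cells had 0.0787, mitotic cells 0.0588 and the unnamed clusters 0.0478. Among the latter, a cluster led by mitochondrial genes such as CYTB and ATP6 had 0.196, 0.140 and 0.0869 (0.141 ± 0.0544, n = 3), which overlapped the spinous values. All 3 spinous values lay above every basal, S phase and mitotic one, and the latter groups overlapped. Cells with a NOTCH1 UMI were 26.3%, 11% and 16.2% of spinous cells, and after thinning 4.77% of spinous and 1.39% of basal cells on average. The log2 difference between spinous and basal cells was 1.43 (SE 0.21, higher in 3 of 3 calves, edgeR adjusted p = 0.000199). In mitotic cells it was -0.53 and did not pass (edgeR adjusted p = 0.108).

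NOTCH2 (ENSBTAG00000007909), a receptor close to NOTCH1 in structure, was hardly detected. Of its 375 UMIs in kept cells, 335 lay in epithelial cells, at 0.0254, 0.0115 and 0.0190 (0.0186 on average), and 33 in immune cells, all of calf 3. Endothelial cells had 0 NOTCH2 UMIs, which allows a pooled level of up to 0.00480 by a limit of 3 counts, and fibroblasts had 6. The class values overlapped from fibroblasts down to endothelial cells, and the gene entered none of the fits between classes. In an unnamed immune cluster of calf 3 the level was 0.416, from 14 UMIs, with no second calf to compare. The spinous layer had 0.0278, mitotic cells 0.0254 and the basal layer 0.0166, and the spinous difference of 0.93 (log2) did not pass (edgeR adjusted p = 0.0658). It passed without calf 3 (1.19, edgeR adjusted p = 0.0432) and with no doublet removal (1.18, edgeR adjusted p = 0.0176).

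NOTCH3 (ENSBTAG00000043971) encodes the receptor known from smooth muscle and pericytes of vessels. Its level in mural cells was 6.45 and 5.37 in calves 2 and 3 (5.91 ± 0.760, n = 2), and the 6 mural cells of calf 1, left out of the mean, had 7.81. Fibroblasts had 17 UMIs (0.124), epithelial cells 0.133, 0.118 and 0.0468 (0.0993 ± 0.0460, n = 3), endothelial cells 0.0383 and immune cells 0.0382. Mural cells stood far above all other classes, and the other 4 overlapped in that order. In calves 2 and 3, 76.7% and 65.3% of mural cells had a NOTCH3 UMI, against 12%, 6.21% and 3.58% of epithelial cells of the 3 calves, at median depths of 2411.5 and 7655 UMIs. Thinned means were 61.9% and 1.91%, with 98 of 312 mural cells left out.

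In mural against epithelial cells the log2 difference of NOTCH3 was 5.80 (SE 0.36, higher in 2 of 2 calves, edgeR adjusted p = 6.68e-10). In endothelial cells it fell by 1.80 (SE 0.42, lower in 3 of 3 calves, edgeR adjusted p = 0.00154), on 2, 8 and 9 endothelial UMIs in calves 1, 2 and 3. NOTCH3 could be tested between classes mainly through mural cells. The mural call thus restates the levels, and the endothelial call is not read as a firm fall. The fibroblast difference of 0.69 did not pass (edgeR adjusted p = 0.278) and turned without calf 3 (-0.43).

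NOTCH3 also differed between the layers. The spinous layer had 0.480, 0.803 and 0.305 (0.529 ± 0.253, n = 3) and the basal layer 0.105, 0.0845 and 0.0350 (0.0748 ± 0.0360, n = 3), and all spinous values lay above those of every other layer. S phase cells had 0.133 and mitotic cells 0.162, 0.146 and 0.0815 (0.130 ± 0.0427, n = 3), which overlapped each other and the basal layer, and the unnamed clusters had 0.0357. A NOTCH3 UMI was found in 48.5%, 49.8% and 26.1% of spinous and in 11.2%, 6.15% and 3.29% of basal cells, and the thinned means were 11.7% and 1.68%. The spinous difference was 3.01 (log2, SE 0.20, higher in 3 of 3 calves, edgeR adjusted p = 5.46e-07). It was 3.64 when 4 of the 5 unnamed clusters whose highest layer score was the basal one were counted as basal layer, a setting chosen after seeing the data that left out the 1 led by mitochondrial genes. In mitotic cells NOTCH3 was higher by 0.66 (edgeR adjusted p = 0.0371), a call lost without the calf block (0.56, edgeR adjusted p = 0.648), without calf 2 or 3 (edgeR adjusted p = 0.0649 and 0.255) and with no doublet removal (edgeR adjusted p = 0.184), and larger with the wider basal layer (1.28, edgeR adjusted p = 0.00135).

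**Figure D2:**
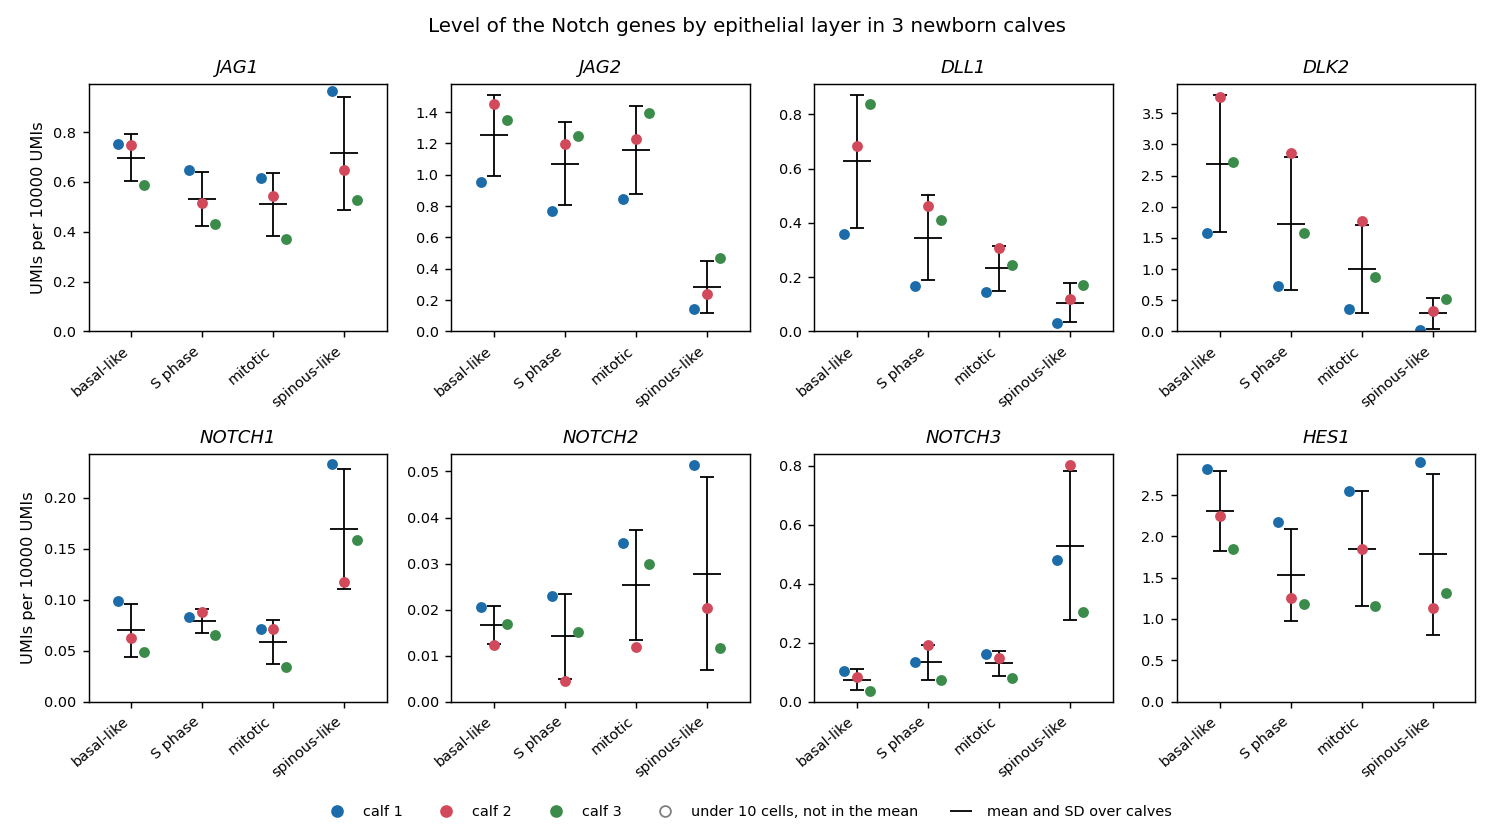
UMIs per 10000 UMIs of 8 Notch genes in 4 named epithelial groups, with a point per calf and a bar for mean and SD over 3 calves. NOTCH1 and NOTCH3 were highest in the spinous layer in every calf, and JAG2, DLL1 and DLK2 were lowest there.

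HES1 (ENSBTAG00000000569) encodes a transcriptional repressor that is the textbook target of the cleaved receptor. It was met in every class, at 4.75 and 2.48 in mural cells (3.61 ± 1.61, n = 2), 2.34, 5.04 and 2.33 in endothelial cells (3.24 ± 1.56, n = 3) and 2.98, 2.83 and 2.14 in epithelial cells (2.65 ± 0.446, n = 3). Immune cells had 2.99, 2.40 and 1.03 (2.14 ± 1.01, n = 3) and fibroblasts 1.15, 1.72 and 0.585 (1.15 ± 0.568, n = 3). All neighbours in this order overlapped, and calf 2 held the high values in mural and endothelial cells. Cells with a HES1 UMI were 81.6%, 68.7% and 63.7% of epithelial and 43.4%, 65.2% and 51.6% of endothelial cells, with thinned means of 36.5% and 37.4%, and the lowest thinned mean was that of fibroblasts (15.1%), of which 274 of 465 cells were left out as too shallow.

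HES1 fell by 1.74 on the log2 scale in fibroblasts against epithelial cells (SE 0.27, lower in 3 of 3 calves, edgeR adjusted p = 4.66e-05). In immune cells it fell by 0.88 (edgeR adjusted p = 0.00677), which was lost without the calf block (-0.77, edgeR adjusted p = 0.216) and without calf 3 (-0.63, edgeR adjusted p = 0.215). An unnamed immune cluster of 35 cells, led by genes such as FCN1, CXCL8 and IL1B, went the other way, with 7.43 in calf 3 and 91 of the 478 immune HES1 UMIs. The endothelial difference of -0.15 (edgeR adjusted p = 0.629) and the mural one of -0.02 did not pass. The first was 0.0064 with no doublet removal, and the second was 0.10 without calf 3 and 0.060 without the block, so neither had a direction.

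Across the named layers HES1 was at 2.82, 2.24 and 1.85 in the basal layer (2.31 ± 0.486, n = 3), 2.55, 1.84 and 1.16 in mitotic cells (1.85 ± 0.695, n = 3), 2.90, 1.13 and 1.31 in the spinous layer (1.78 ± 0.969, n = 3) and 2.18, 1.25 and 1.18 in S phase cells (1.54 ± 0.555, n = 3). The unnamed clusters had 3.86, 3.73 and 2.71 (3.44 ± 0.629, n = 3). Neighbours overlapped throughout, and calf 1 was the highest in each of these groups. The spinous difference of -0.31 did not pass (edgeR adjusted p = 0.142). It passed without calf 1 (-0.57, edgeR adjusted p = 0.0370), with no filter on low counts (-0.41, edgeR adjusted p = 0.0118), with the Notch genes left in the clustering (-0.64, edgeR adjusted p = 0.0190) and with the wider basal layer (-0.71, edgeR adjusted p = 0.00793), and was 0.024 with no doublet removal. In mitotic cells HES1 fell by 0.59 (lower in 3 of 3 calves, edgeR adjusted p = 0.0132), a call lost without the calf block (-0.54, edgeR adjusted p = 0.530), without calf 3 (edgeR adjusted p = 0.163) and with no doublet removal (edgeR adjusted p = 0.179). The basal level was uneven: the basal cluster led by stress genes had 3.31, 3.83 and 2.74, and the other basal clusters had 2.47, 1.41 and 0.985 and 2.23, 0.865 and 0.842, below mitotic cells in every calf, so the fall rests on the first of the 3 clusters.

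HES1 moved between epithelial clusters with immediate-early genes, a group that enzymatic dissociation is known to raise. Its highest epithelial cluster, led by ATF3, CLDN4 and EGR1, had 6.41, 5.32 and 4.70 (5.48 ± 0.868, n = 3), against 1.92, 1.17 and 0.845 in a cluster led by CA3, HPGD and FGFR2. The summed level of 21 immediate-early and heat-shock genes, all 21 of them found, was 184, 208 and 272 in the first cluster and 54.4, 62.6 and 103 in the second. Over the 13 epithelial clusters, which share the same 3 libraries, Pearson's r of HES1 was 0.94 with the summed list, 0.97 with ATF3 and 0.95 with EGR1, but 0.03 with HSPA1A. Over all epithelial cells the list summed to 97.2, 120.1 and 167, with JUN the most abundant (26.2), so that it rose from calf 1 to calf 3 while HES1 went down, and in immune cells it averaged 188 with HES1 at 2.14. It stood at 88.0, 92.5 and 149 in the basal and 75.6, 53.3 and 103 in the spinous layer. The part of these genes in the HES1 levels was not tested.

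**Figure D3:**
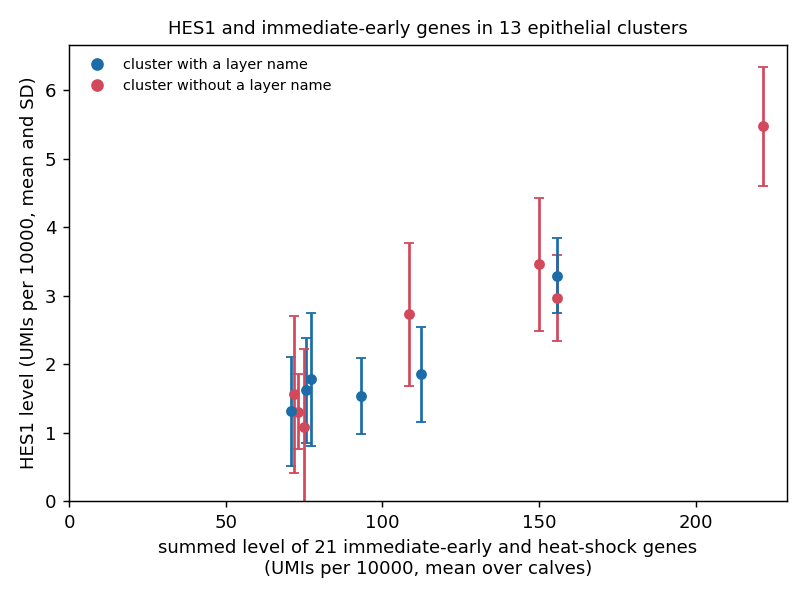
HES1 level (UMIs per 10000 UMIs, mean and SD over calves) against the summed level of 21 immediate-early and heat-shock genes in 13 epithelial clusters, blue for clusters with a layer name and red for those without. HES1 was highest in the clusters in which the summed list was highest.

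DLK1 (ENSBTAG00000037899), known from preadipocytes and fetal mesenchyme, was a fibroblast gene in these calves. Its level was 20.6, 6.02 and 13.8 in fibroblasts (13.5 ± 7.28, n = 3), from 1021 of 1108 UMIs in kept cells, against 0.00595, 0.00420 and 0.00395 in epithelial cells (0.00470 on average, 85 UMIs). Endothelial cells had 2 UMIs, and mural and immune cells 0, which allows pooled levels of up to 0.0349 and 0.00751. The calves differed widely in fibroblasts but each lay far above all its other classes.

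The DLK1 signal lay in a fibroblast cluster led by MFAP5, SAA3 and DLK1 itself, although DLK1 was not used to form it. That cluster had 19.7 and 35.7 in calves 2 and 3 (27.7 ± 11.4, n = 2) and held 1014 of the 1021 fibroblast UMIs, and the 7 cells of calf 1, left out of the mean, had 33.3. The fibroblasts led by CXCL14, LUM and PAM had 0.0344 and 0.203 in the same calves, from 7 UMIs. A DLK1 UMI was found in 82.0% and 95.5% of the MFAP5 fibroblasts of calves 2 and 3, and in 0.545%, 0.308% and 0.321% of the deeper epithelial cells. The 2 kinds of fibroblast did not overlap. For all fibroblasts together the shares were 43.8%, 22.8% and 29.8%, and the log2 difference from epithelial cells was 10.86 (SE 0.36, higher in 3 of 3 calves, edgeR adjusted p = 7.41e-12). DLK1 could be tested mainly through fibroblasts, so this call restates the levels.

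DLK2 (ENSBTAG00000005850), the less studied relative of DLK1, was an epithelial gene. Its level was 1.12, 3.02 and 2.25 in epithelial cells (2.13 ± 0.957, n = 3), which held 41237 of its 41382 UMIs. Immune cells had 0, 0.672 and 0.0709 (0.248 ± 0.369, n = 3), mural cells 0.190 ± 0.0157 (n = 2), fibroblasts 0.190 ± 0.0209 and endothelial cells 0.108 ± 0.0357 (n = 3). Every epithelial value lay above every other one, immune, mural and fibroblast values overlapped, and endothelial values were just below those of fibroblasts. The share of cells with a DLK2 UMI was 51.1%, 71.5% and 67.4% in epithelial cells and 3.95%, 4.84% and 3.48% in endothelial cells, at median depths of 7655 and 3914.5 UMIs, and thinned means were 31.9% and 1.88%. Per 1000 KRT15 UMIs, DLK2 had 20.1 UMIs in epithelial, 20.0 in endothelial, 21.6 in fibroblast, 22.3 in mural and 22.4 in immune cells, nearly 1 ratio in all classes, although within immune cells it was 29.7 in T or NK cells (43 of 53 UMIs) and 8.61 in dendritic or myeloid cells. Free epithelial RNA and epithelial doublets left in would both give a ratio like the epithelial one, and they were not told apart.

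DLK2 fell by 5.04 on the log2 scale in endothelial against epithelial cells (SE 0.47, lower in 3 of 3 calves, edgeR adjusted p = 4.96e-08), by 4.08 in fibroblasts, by 4.09 in mural and by 3.82 in immune cells. With no doublet removal it fell by 2.92, 1.76, 1.86 and 2.72 in the same order and passed each time. In immune cells it fell by 5.30 without calf 2 and by 2.60 without calf 3. JAG2 and DLL1 were lower too in 3 of these classes, JAG2 by -3.47, -3.38 and -3.39 and DLL1 by -2.30, -3.68 and -4.12 (log2, fibroblast, mural and immune). With no doublet removal these were -1.92, -1.40 and -2.39 for JAG2 and -1.31, -1.43 and -2.62 for DLL1. Without calf 2 JAG2 was at -4.17 in mural and -4.41 in immune cells, and without calf 3 at -2.61 and -2.24, with DLL1 at -3.14 in immune cells. Leaving out calf 2 or 3 leaves a single mural sum, so the mural values of these settings are effect sizes only. All the other differences given here passed. DLK2, with nearly all of its UMIs in epithelial cells, could be tested mainly through them, so its falls restate the levels above.

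Within the epithelium DLK2 went down in the same order in every calf: basal, S phase, mitotic, spinous. The values were 1.57, 3.77 and 2.72 in the basal layer (2.69 ± 1.10, n = 3), 0.735, 2.85 and 1.58 in S phase (1.72 ± 1.07, n = 3), 0.365, 1.77 and 0.873 in mitotic cells (1.00 ± 0.709, n = 3) and 0.0217, 0.322 and 0.525 in the spinous layer (0.289 ± 0.253, n = 3). Calf 1 was the lowest in each group, so neighbours overlapped across calves although the order was the same within them, and basal and spinous values did not overlap. The unnamed clusters had 2.37 ± 0.738, among them a cluster led by PPM1N, DLK2, IRX3 and CLDN1 with 2.09, 3.88 and 2.96, which resembled a basal cluster led by LY6D and COL17A1 with 1.86, 3.87 and 3.08. A DLK2 UMI was found in 65.7%, 81.8% and 75.8% of basal and in 1.88%, 15.4% and 23.0% of spinous cells, and thinned means were 37.1% and 5.21%. Here the ratio to KRT15 was not constant, with 20.9 DLK2 UMIs per 1000 KRT15 UMIs in basal, 13.7 in S phase, 9.32 in mitotic and 4.84 in spinous cells. DLK2 fell by 3.33 in the spinous layer (log2, SE 0.41, lower in 3 of 3 calves, edgeR adjusted p = 6.04e-05), and by 4.16 without calf 3. At the coarser resolution of 0.4 the spinous level of DLK2 was 0.953, that of JAG2 0.610 and that of DLL1 0.208, each higher than above, and no differences were recomputed at that resolution. In mitotic cells DLK2 fell by 1.84 (edgeR adjusted p = 0.00201), a call lost without the calf block (-1.64, edgeR adjusted p = 0.313).

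Set side by side, the comparisons called these numbers of the 8 members that each fit could test. Against epithelial cells, endothelial cells had 2 members higher and 2 lower, where 26.6% and 23.2% of all 7946 genes were, and the members' share was close to that. Fibroblasts had 2 higher and 5 lower (21.8% and 20.6% of all genes), mural cells 1 and 3 (16.6% and 16.4%) and immune cells 1 and 5 (25.2% and 26.7%). The counts of lower members in these 3 classes were above the background share, and DLK2, JAG2 and DLL1 were lower in each. DLK2, with nearly all of its UMIs in epithelial cells, could be tested mainly through them. With 8 genes behind each count, the excess of lower members is not read as a result. The counts of higher members were near the background share in fibroblasts and mural cells and below it in immune cells. They include DLL4 in fibroblasts and immune cells, on 5 and 12 UMIs, calls that are not read as rises. Without DLL4, DLK1 alone was higher in fibroblasts and no member in immune cells. DLK1 in fibroblasts, NOTCH3 in mural and DLL4 in endothelial cells were tested mainly through the class in which they were high. Their calls restate the levels, and these counts of higher members are not read as a result. The spinous layer had 2 members higher and 3 lower than the basal layer (21.6% and 20% of 10574 genes) and mitotic cells 1 and 4 (15.8% and 15.9%). The counts of higher members were near the background in these comparisons, and those of lower members were above it. Without the calf block the genes called in all were 877 higher and 695 lower in place of 2284 and 2117 for the spinous layer, and 456 and 197 in place of 1675 and 1683 for mitotic cells, so that the higher share of mitotic calls went from 49.9% to 69.8%. Members that did not reach the filter were NOTCH1 and NOTCH2 between classes and DLK1 and DLL4 between layers.

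The members' median log2 difference was -0.20 in endothelial, -1.28 in fibroblast, -1.70 in mural and -2.39 in immune cells, and -0.07 in the spinous layer and -0.56 in mitotic cells. Over all genes it was 0.03, -0.05, -0.10, -0.07, -0.01 and -0.02. Leaving out DLK1, which had 0 to 2 UMIs in endothelial, mural and immune cells, the members' medians there were -0.15, -0.02 and -1.39. Log2 differences rest on effective library sizes scaled by the trimmed mean of M values, which stood apart from plain totals by 0.37, 0.46, 0.40, 0.32, -0.16 and 0.21 (log2, first minus second group), and levels rest on plain totals.

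Of the 52 other genes of the pathway list, 30 could be tested between classes, and 11 were higher and 7 lower in endothelial (26.6% and 23.2% of all genes were), 8 and 6 in fibroblast (21.8% and 20.6%), 3 and 4 in mural (16.6% and 16.4%) and 8 and 7 in immune cells (25.2% and 26.7%). In endothelial cells the largest rises were in EGFL7, a secreted vascular antagonist of the pathway, at 12.6, 14.1 and 13.1 against 0.0456 in epithelial cells (log2 7.85, edgeR adjusted p = 3.39e-12), in MFNG, a sugar transferase that modifies the receptors, at 1.05 against 0.00386 (7.84), and in the target HEY2, at 0.0601 from 33 UMIs. HEY2 had too few epithelial UMIs for a fold, so its place among these rises is uncertain. RBPJ, the DNA-binding partner of the cleaved receptor, fell by 2.03 and DTX3 by 2.09, and DTX4, another Deltex gene, had only 4 endothelial UMIs.

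In mural cells, beside NOTCH3, the targets HEYL and HEY2 stood at 1.04 and 1.05 and at 0.567 and 0.302 in calves 2 and 3, against 5 and 6 UMIs in all epithelial cells, too few for a fold. PSEN2, a subunit of the protease that cuts the receptor, was higher by 3.34 in mural, by 2.29 in fibroblast and by 3.03 in immune cells (log2). The fibroblast and immune calls were lost without calf 2 (edgeR adjusted p = 0.202) and without calf 3 (edgeR adjusted p = 0.284). LFNG, a sugar transferase, fell by 2.50 in mural cells, ADAM10, the protease of the first cut, by 1.65, and FBXW7, which marks the cleaved receptor for decay, by 1.61. Leaving out calf 2 or 3 leaves a single mural sum, so effect sizes alone are given for these settings. Without calf 3 LFNG was at -1.09 and ADAM10 at -1.34, and without calf 2 LFNG was at -5.28 and FBXW7 at -2.10. The calls of LFNG and ADAM10 did not hold without calf 3, nor that of FBXW7 without calf 2. LFNG was at -1.12 with no doublet removal. FBXW7 was also lost without the block (edgeR adjusted p = 0.0869) and with DESeq2 (adjusted p = 0.0607).

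In fibroblasts HEYL had 10 UMIs and HEY1 1, and DTX4 was higher by 2.02, lost without calf 3 (edgeR adjusted p = 0.136). LFNG fell by 3.19 there, by 2.39 without calf 3 and by 1.42 with no doublet removal, and DTX2 by 1.65, lost without calf 2 (edgeR adjusted p = 0.178). The call of HEY1 in fibroblasts was lost without the block (edgeR adjusted p = 0.0610) and without calf 3 (edgeR adjusted p = 0.422). In immune cells MFNG was higher by 7.97 (log2), at a level of 0.888, while HEYL, HEY1, NUMBL and DTX4 had 5, 11, 5 and 2 UMIs and lost their calls without calf 3 (edgeR adjusted p = 0.917, 0.113, 0.183 and 0.174).

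Between the layers 37 of the 52 other genes could be tested. In the spinous layer 5 were higher and 8 lower than in the basal layer, where 21.6% and 20% of all genes were, so the rises were fewer than that share and the falls near it. HES2, a gene of the same family as HES1, stood at 0.206, 0.243 and 0.263 against 0.0194 in the basal layer (log2 3.76, edgeR adjusted p = 1.26e-07), and 3.06 with no doublet removal. APH1A, of the complex that makes the second cut in the receptor, was higher by 0.47. LFNG fell by 2.91 on the log2 scale (0.605 in basal and 0.0800 in spinous cells), RBPJ by 1.59 (0.650, 0.897 and 1.28 against 0.195, 0.231 and 0.428) and the target HEY1 by 1.56. The 3 basal values of RBPJ lay above all spinous ones. The APH1A call was lost without the block (edgeR adjusted p = 0.165) and without calf 1 or 2 (edgeR adjusted p = 0.0537 and 0.0770). That of HEY1 was lost without the block (edgeR adjusted p = 0.290) and with no doublet removal (edgeR adjusted p = 0.149), and its difference was -2.23 without calf 3 and -2.63 with the wider basal layer. In mitotic cells 0 of these genes were called higher by edgeR and 7 were lower (15.8% and 15.9% of all genes), with DTX3 at -1.0, DTX2 at -0.79 and MIB2, a ubiquitin ligase that acts on ligands, at -0.75 (log2). The last 2 were lost without the block (edgeR adjusted p = 0.263 and 0.213), and MIB2 also without calf 1 (edgeR adjusted p = 0.0516).

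Likeness of pattern was measured as Pearson's r of log levels over 22 clusters of at least 50 cells, among 5992 genes, as a description of clusters that share the same 3 libraries. The genes most like DLK1 were SAA3, NRK and MFAP5 (0.996 each), and those most like DLL4 were CD300LG, CCL14 and ECSCR (0.981, 0.976 and 0.975). DLK2 was most like LAMB3, WNT10A and COL17A1 (0.966, 0.965 and 0.959), JAG2 like ITGB4, CDH13 and NEK6 (0.948, 0.915 and 0.908) and DLL1 like TC2N, KIAA1217 and NEK6 (0.919, 0.917 and 0.875). Several of these, LAMB3, COL17A1 and ITGB4, are genes of the basal cell's anchorage to the basement membrane, and were among the basal markers. NOTCH3 was most like NDUFA4L2, ITGA7 and UNC13C (0.890, 0.884 and 0.865), and JAG1 like EPN2, TIMP3 and CASKIN2 (0.838, 0.835 and 0.819). For HES1 the 3 were FXR1, ETS2 and ACTN4 (0.734, 0.704 and 0.694). NOTCH1, with ELL2, MATK and PTK2B (0.801, 0.767 and 0.756), and NOTCH2, with ELOVL4, JCHAIN and DERL1 (0.880, 0.878 and 0.877), stayed below 0.5 UMIs per 10000 in all 22 clusters, so their patterns rest on few UMIs. Among the members themselves JAG2 and DLL1 were the most alike (0.850), followed by DLK2 with DLL1 (0.698) and with JAG2 (0.656).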

How the data were processed

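Rumen cells of 3 newborn calves were measured with a droplet 3′ kit (v3 chemistry). The authors made the deposited files with Cell Ranger 3.1.0, and their values are whole UMI counts per gene and barcode, not normalized. Reads were aligned by the authors to the cattle genome ARS-UCD1.2, and the gene annotation is not given in the sources used here. Adult animals of the study were not analysed here. The members and gene lists were chosen with earlier results of these data known.

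A barcode was kept if between 500 and 4000 genes were detected in it, its UMIs did not exceed 50000 and 13 protein-coding mitochondrial genes held no more than 40% of them, which left 4886, 10654 and 10480 in the 3 calves. Doublets were taken by a score against simulated doublets, at 0.8% per 1000 cells, which removed 191, 908 and 879 (3.91%, 8.52% and 8.39%). The gene limits are those of the study's methods. Without doublet removal 26020 cells remained, and with the gene limit and doublet removal alone 24209. Cells were clustered on 2000 variable genes, none of them among 62 Notch pathway genes, with 30 principal components and resolution 0.1 for a first split, in which clusters with PTPRC in over 25% of cells were taken as immune, then 50 components and resolution 0.8 (non-immune) or 0.2 (immune), which gave 24 clusters. A cluster took the class with the highest mean log ratio of its marker genes. An epithelial cluster took a layer name if at least 3 of that layer's markers were among its 10 leading genes within the class, or, for the basal layer, if at least 1 was among its 10 leading genes over all clusters, no other layer had more, and no mitochondrial gene led it.

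Counts were summed per calf and group, with sums of fewer than 10 cells left out, and tested with edgeR 4.0.16 (R 4.3.3; filterByExpr, TMM, two-sided quasi-likelihood test, Benjamini-Hochberg adjustment over all genes tested, threshold 0.05). The 5 classes shared 1 fit and the 4 named layers another. Each calf gave every class, but the mural sum of calf 1 (6 cells) was left out. The calf number pairs the remaining sums of the same animal and was kept as a block. DESeq2 1.42.0, no block, no filter beyond 1 count, no doublet removal, leaving out each calf, other resolutions, Notch genes left in, and a wider basal layer (chosen after seeing the data) were the alternatives. Scripts ran in Python 3.11.15 with scikit-learn 1.9.0 and igraph 0.11.9, and the tests were tried on simulated counts first.

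Shares of cells with a UMI were also given after thinning each cell of at least 2000 UMIs to 2000. A count of 0 was given the limit of 3 counts. Limits and SDs over calves cover 3 animals at most, and a limit covers counting error only. Named genes were all members and, of the other 52 pathway genes, the 3 largest rises and 3 largest falls past the threshold in each comparison, except 1 gene that is not reported here. For likeness, the 3 genes with the highest Pearson's r over clusters were named, of genes reaching 0.5 UMIs per 10000 in a cluster, on log2 of the level plus 0.1.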

Additional observations from a re-analysis of the deposited data

How the results depend on the processing

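Of 400 recomputed differences of the 10 Notch genes, 355 kept their direction and their side of the threshold, 24 lost a call, 11 gained one and 10 turned direction, and of 272 for the other pathway genes 249 kept both, 22 lost a call and 1 turned. The directions that turned belonged to differences that had not passed, except that of HEYL. Without replicate 3, NOTCH3 in fibroblasts was -0.43 (log2 against epithelial cells; range over the left-out replicates -0.43 to 1.32), DLL4 in mural cells -4.26 (-4.26 to 3.91), HES1 in mural cells 0.10 (-0.20 to 0.10) and HEYL in immune cells -2.77 (-2.77 to 5.10). That setting, like leaving out replicate 2, leaves 1 mural sum, assumed to vary like the other groups. Without replicate 3 there were 0 UMIs of DLL4 in that sum and of HEYL in immune cells, so these 2 turned values are no measured falls. JAG2 in endothelial cells was 0.16 without replicate 2 (-0.56 to 0.16), and JAG1 in the spinous layer -0.014 without replicate 1 (-0.014 to 0.24) and -0.12 with 4 unnamed clusters counted as basal layer. HES1 was 0.077 in mural cells with DESeq2, and with no doublet removal 0.0064 in endothelial cells and 0.024 in the spinous layer.

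The calf block is part of the design, and without the replicate block HES1 in mural cells was 0.060, and the genes called were 877 higher and 695 lower for the spinous layer and 456 and 197 for mitotic cells. Among members the missing block ended the calls of JAG1 in endothelial cells and fibroblasts, of HES1 in immune cells and of all 5 members called in mitotic cells, and no other. With no filter beyond 1 count, 3194 genes were lower in endothelial cells, and 3234 were higher and 3332 lower in immune cells, among 19657 genes tested in place of 7946. Leaving out each replicate, the genes called higher and lower were 1537 to 2300 and 1372 to 2334 in endothelial cells, 1131 to 1950 and 1077 to 1871 in fibroblasts, 857 to 1487 and 629 to 1610 in mural cells, 1223 to 2498 and 1177 to 2477 in immune cells, 1491 to 1872 and 1379 to 1637 in the spinous layer, and 914 to 1342 and 901 to 1236 in mitotic cells, with fewer sums in each fit. The lowest counts of fibroblasts, mural, immune and mitotic cells came without replicate 3.

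Of 860 recomputed levels 824 moved by less than 1 SD over calves. Those without replicate 1, 2 or 3 (80, 110 and 110 of the 860) could not move that far, since the SD came from the same calves. They therefore say nothing on how far the levels depend on single calves. With no doublet removal DLK2 was 0.382 in endothelial cells, 0.757 in fibroblasts, 0.868 in mural cells, 1.27 in PAM fibroblasts and 0.488 in MFAP5 fibroblasts. JAG2 in the last 4 was 0.403, 0.589, 0.450 and 0.355, and DLL1 0.248, 0.336, 0.446 and 0.212. NOTCH3 was 4.6 in mural cells and 0.152 in PAM fibroblasts, where DLL4 was 0.0502 and NOTCH1 0.0298. HES1 was 0.905 in MFAP5 fibroblasts, NOTCH2 0.00268 in endothelial cells, and DLK1 0.000715 in immune and 0.00412 in mitotic cells. With only the limit of 500 to 4000 genes, DLK2 was 0.271 in mural cells, DLK1 0.00289 in the spinous layer, and DLL1 0.201 and NOTCH1 0.0334 in PAM fibroblasts. At resolution 0.4, JAG1 was 0.836 and HES1 2.92 in the basal layer, NOTCH1 0.0647 and HES1 2.20 in S phase cells, and DLK2 0.953, JAG2 0.610 and DLL1 0.208 in the spinous layer. HES1 in the basal layer was 2.97 with the Notch genes left in the clustering, and with 4 unnamed clusters counted as basal layer HES1 was 2.98, JAG1 0.847 and DLK1 0.00482. At resolution 1.2 all 110 levels moved by less than 1 SD. Thinning to 1000 UMIs moved 45 of 90 shares by more than 1 SD, since fewer UMIs are left in each cell. For the other changes the cause was not tested.

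Depth limits the small classes. Calf 1 had 16 fibroblasts, 10 immune and 6 mural cells, NOTCH1 and NOTCH2 were too low to be tested between classes, and levels resting on under 20 UMIs are counts of a few molecules. Cells of the spinous layer made up 1 cluster, and 7 epithelial clusters had no layer name, so differences between layers hold for the named clusters alone.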
